A study of Homo sapiens with 9 samples.

Results

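The antigen presentation genes described here were 10 genes chosen by name, B2M, NLRC5, CIITA, CD74, ERAP1, ERAP2, PDIA3, CALR, RFX5 and HLA-DQB1, out of 58920 genes with a read count in each library. All 10 were listed in every library, and 9 of them had enough counts to be tested, the exception being CD74. They were measured by RNA sequencing in LIM1215, an epithelial colorectal cancer cell line without a RAS mutation at the start of the study, and in cells of this line that had become resistant to cetuximab, an antibody that blocks the epidermal growth factor receptor EGFR. LIM1215-R1 and LIM1215-R2 were derived separately by long culture in rising cetuximab, and LIM1215-parental was the same line kept in parallel without the antibody. RNA was taken from all 3 lines under basal conditions without treatment, with 3 libraries per line.

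Both resistant lines were mixed populations rather than clones, and each stands for 1 selection. The study reports an activating HRAS mutation in a subpopulation of each, a different one in LIM1215-R1 and in LIM1215-R2. A difference between LIM1215-R1 and LIM1215-R2 can therefore be told apart neither from these mutations nor from the history or harvest of a culture. The same holds for a difference of either line from LIM1215-parental. The study describes the 3 libraries of a line as technical replicates, and p-values therefore measure only the spread between these libraries. The design asks how the resistant lines differ from the parental line and from each other. Both comparisons with the parental line use the same 3 parental libraries.

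MHC class I molecules display peptides from a cell's own proteins to CD8+ T cells. Each consists of a heavy chain, such as those encoded by HLA-B and HLA-C, and the light chain beta-2-microglobulin, the product of B2M, and is loaded in the endoplasmic reticulum with peptides that the TAP transporter imports and that the aminopeptidases ERAP1 and ERAP2 trim. CALR (calreticulin) and PDIA3 (ERp57) are chaperones of the loading complex. MHC class II molecules such as the one that HLA-DQB1 contributes a beta chain to present peptides from the endosome to CD4+ T cells, with CD74, the invariant chain, guarding the groove until then. Professional antigen-presenting cells make class II constantly, whereas epithelial cells do so mainly after exposure to interferon gamma. NLRC5 is the transactivator of class I genes and CIITA that of class II genes, and both are recruited by a DNA-bound complex that contains RFX5.

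The promoters of 4 members are shown with matches of fixed letters of elements known to control such genes. They are the bases just before the transcription start in RefSeq (GRCh38.p14), read on the strand of the gene, and capitals mark the matches found. The gene positions given further below are those of GENCODE, which reach upstream of these RefSeq starts for all 4 genes. Distances of matches are counted from the RefSeq starts. In B2M the capitals are 2 overlapping matches of GAAANNGAAA, a form of the interferon response element, and the reverse complement of CCAAT, the letters of the box bound by NF-Y. In CD74 they are a match of CCNAGNAAC, a form of the X1 box bound by RFX, and CCAAT. In HLA-DQB1 they are the reverse complement of CCAAT and CCAAT itself. In CALR they are CCAAT boxes on either strand and, farthest upstream, the reverse complement of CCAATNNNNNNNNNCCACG, the endoplasmic reticulum stress element, which contains a CCAAT of its own.
B2M, chr15:44711367-44711516, plus strand: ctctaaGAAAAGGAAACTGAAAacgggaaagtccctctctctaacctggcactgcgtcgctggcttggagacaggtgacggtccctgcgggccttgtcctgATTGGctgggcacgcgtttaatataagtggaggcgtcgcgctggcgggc
CD74, chr5:150412911-150413060, minus strand: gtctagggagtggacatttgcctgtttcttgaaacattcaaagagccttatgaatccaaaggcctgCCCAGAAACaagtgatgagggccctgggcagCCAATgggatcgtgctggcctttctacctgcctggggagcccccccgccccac
HLA-DQB1, chr6:32666658-32666807, minus strand: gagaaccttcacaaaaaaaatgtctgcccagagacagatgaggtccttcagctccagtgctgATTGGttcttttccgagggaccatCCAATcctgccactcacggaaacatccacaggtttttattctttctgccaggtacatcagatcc
CALR, chr19:12938359-12938608, plus strand: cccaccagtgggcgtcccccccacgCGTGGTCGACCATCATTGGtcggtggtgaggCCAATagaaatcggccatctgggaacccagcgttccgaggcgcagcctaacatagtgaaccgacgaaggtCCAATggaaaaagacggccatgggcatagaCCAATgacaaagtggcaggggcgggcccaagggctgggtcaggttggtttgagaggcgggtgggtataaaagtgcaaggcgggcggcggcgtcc

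The table of promoters held 7 of the 10 members in 11 windows, counting alternative starts, and each window was searched over the 250 bases before its start on both strands. The interferon response letters occurred in 3 of the 11 windows, 1 each of B2M, ERAP2 and RFX5, and in 3.02% of all 35116 promoter windows. In B2M the matches began 144 and 138 bases before the start and in ERAP2 30 bases before it. CCAAT occurred in 6 of the 11 windows, 1 for each gene but ERAP2, and in 32% of all windows. The X1 letters were found in 1 window, that of CD74, 84 bases before the start, and in 3.84% of all windows. The stress element was found in 1 window, that of CALR, 225 bases before the start, and in 0.074% of all windows. These matches describe sequence and were not tested for binding. A site with letters that differ from those searched was not marked, so that the lack of an X1 match, as in HLA-DQB1, does not show that a site is absent.

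Total counts per library lay between 13737416 and 18725014, and 3 counts corresponded to between 0.158 and 0.217 CPM, the count scaled to library size in a library. Of 10 markers of colorectal epithelium 9 were at a mean of at least 1 CPM over the libraries, with KRT20 at 0 counts in all of them. Of 14 markers of leukocytes and professional antigen-presenting cells only CD68 reached that level, and PTPRC, AIF1, MS4A1, CD3E, CD80 and CD86 were at 0 counts in every library. None of the 8 markers of stroma and endothelium reached it over the 9 libraries, and COL1A2 was at 0 counts. COL1A1 was the exception in single libraries, at 0.457 to 1.77 CPM and a mean of 1.28 ± 0.587 CPM in the parental line.

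In LIM1215-R1 the class I genes NLRC5 and B2M and the class II gene HLA-DQB1 were higher than in LIM1215-parental, and ERAP1 and CALR were lower. In LIM1215-R2 NLRC5, B2M and ERAP2 were higher and ERAP1, CALR and RFX5 were lower. A gene was called at an adjusted p of at most 0.01 in edgeR's quasi-likelihood test, and a differentially expressed gene (DEG) had in addition an absolute log2 change of 1.5 or more. Thus 3 of the 9 tested members rose and 2 fell in LIM1215-R1, where 14.0% and 13.4% of the 19102 tested genes were called higher and lower. In LIM1215-R2, 3 rose and 3 fell, against 12.3% and 11.6% of all genes. With DESeq2 the second count was 1 higher and 3 lower, because B2M and ERAP2 missed the threshold. The only DEG among the members in LIM1215-R1 was HLA-DQB1, in a comparison where 5.14% of all genes were DEGs. In LIM1215-R2 the largest change of a called member was that of NLRC5, at 0.84 on the log2 scale, short of the DEG limit that 4.82% of all genes passed. The median log2 change of the 9 members was -0.10 and -0.11 in these comparisons, beside -0.01 and -0.0037 for all genes tested.

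Between the resistant lines, RFX5 and HLA-DQB1 were lower in LIM1215-R2 than in LIM1215-R1, 2 of 9 members where 3.77% of all genes were called lower. No member was called higher by edgeR or by DESeq2, and none was higher at an unadjusted p under 0.05, while 3.39% of all genes were called higher. HLA-DQB1 was the only member that was a DEG in this comparison, as were 0.764% of all genes. The median log2 difference of the members was -0.01. The libraries of the resistant lines did not overlap for 4 of the 9 members, beside 28.0% of all genes tested.

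**Figure D1:**
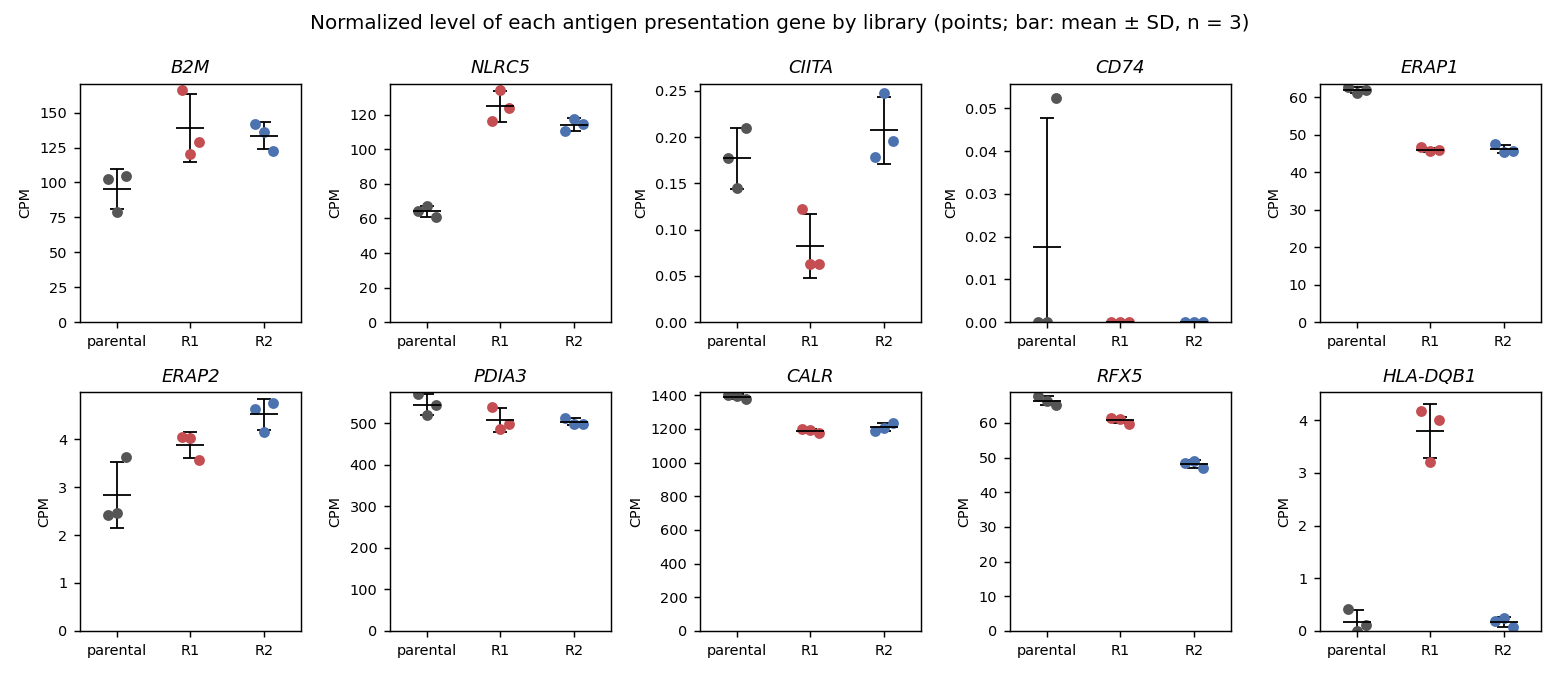
Level of each of the 10 genes in CPM (y axis, linear from 0, a separate scale for each gene) in the 3 libraries of each line (points), with the mean and SD as bars (n = 3). NLRC5 and B2M lie higher in both resistant lines than in the parental line, ERAP1 and CALR lie lower, RFX5 is lowest in LIM1215-R2, and HLA-DQB1 is high in LIM1215-R1 alone.

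NLRC5 (chr16:56989485-57083531 in hg38, plus strand), the class I transactivator, stood at 64.2, 67.3 and 60.8 CPM in the parental libraries, at 116, 134 and 124 CPM in those of LIM1215-R1 and at 110, 117 and 115 CPM in those of LIM1215-R2. Every resistant library was above every parental library, and the 2 resistant lines overlapped. The mean rose from 64.1 ± 3.28 CPM (SD, n = 3) to 125 ± 9.01 CPM in LIM1215-R1, a log2 change of 0.96 (SE 0.0592, adjusted p = 2.7e-13). In LIM1215-R2 it was 114 ± 3.62 CPM, a log2 change of 0.84 (SE 0.0594, adjusted p = 5.7e-12). LIM1215-R2 and LIM1215-R1 differed by -0.13 on the log2 scale, which missed the threshold (adjusted p = 0.156). RNA came from bulk cultures, in which a change in the number of cells that express a gene cannot be told apart from a change in RNA per cell.

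CIITA (chr16:10866222-10943021, plus strand), the class II transactivator, was close to undetected. It had 3, 2 and 4 counts in the parental libraries, 2, 1 and 1 in LIM1215-R1 and 3, 4 and 3 in LIM1215-R2. These counts differed by less than counting error allowed, since the ratio of LIM1215-R1 to parental was 0.459 with an exact 95% interval of 0.103 to 1.65 and that of LIM1215-R2 to parental 1.15 with an interval of 0.419 to 3.19. Over all 9 libraries its 23 counts amounted to 0.157 CPM (exact 95% interval 0.0996 to 0.236). Such intervals cover counting error only.

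RFX5 (chr1:151340640-151347326, minus strand), the DNA-binding subunit that both transactivators depend on, was measured at 67.8, 66.3 and 65.2 CPM in the parental libraries, at 61.3, 61.1 and 59.7 CPM in those of LIM1215-R1 and at 48.3, 49.1 and 47.0 CPM in those of LIM1215-R2. The 3 lines did not overlap at all, with LIM1215-R2 lowest. RFX5 fell by 0.46 on the log2 scale in LIM1215-R2 against parental (SE 0.0574, adjusted p = 2.27e-07) and differed from LIM1215-R1 by -0.33 (SE 0.0578, adjusted p = 0.000178). In LIM1215-R1 the difference from parental was -0.13 (SE 0.0562) and missed the threshold (adjusted p = 0.0764).

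B2M (chr15:44711358-44718851, plus strand), the light chain shared by all class I molecules, stood at 103, 78.7 and 105 CPM in the parental libraries, at 166, 121 and 129 CPM in those of LIM1215-R1 and at 142, 136 and 123 CPM in those of LIM1215-R2. All resistant libraries were above all parental ones, although the spread within a line was wider than for NLRC5, with 1 low parental library and 1 high library of LIM1215-R1. Its mean was 95.4 ± 14.5 CPM in the parental line, 139 ± 24.3 CPM in LIM1215-R1 and, in LIM1215-R2, 133 ± 9.75 CPM. B2M rose by a log2 change of 0.54 in LIM1215-R1 (SE 0.0927, adjusted p = 3.67e-05) and of 0.48 in LIM1215-R2 (SE 0.0928, adjusted p = 0.000166). In DESeq2's test the second call was lost (adjusted p = 0.0125). The difference between the resistant lines was -0.06 (SE 0.0911, adjusted p = 0.773).

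HLA-B and HLA-C, heavy chains that pair with B2M, were higher in both resistant lines as well. HLA-B rose from 827 ± 31.5 CPM to 1312 ± 43.6 and 1183 ± 29.3 CPM, with log2 changes of 0.67 and 0.52. HLA-C rose from 316 ± 8.36 CPM to 478 ± 7.60 and 438 ± 7.86 CPM, with log2 changes of 0.60 and 0.47. The largest adjusted p among these 4 tests was 2.09e-10. HLA-B was also lower in LIM1215-R2 than in LIM1215-R1, by a log2 difference of -0.15 (SE 0.0376, adjusted p = 0.00775). That call was lost with total counts as the scale (adjusted p = 0.0164) and on leaving out parental replicate 3, LIM1215-R1 replicate 2 or 3 or any library of LIM1215-R2 (adjusted p between 0.0106 and 0.0765).

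**Figure D2:**
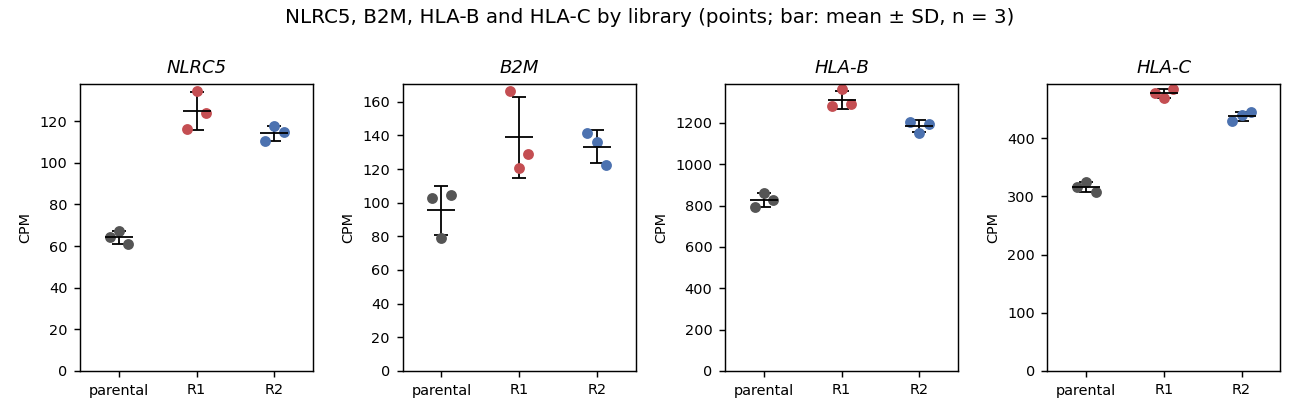
CPM (y axis, linear from 0, a separate scale for each gene) of NLRC5, B2M and the heavy chain genes HLA-B and HLA-C in the 3 libraries of each line (points), with mean and SD (n = 3). For all 4 genes the resistant libraries lie above the parental ones, and B2M has the widest spread within a line.

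Of the enzymes that trim peptides, ERAP1 fell in both resistant lines and ERAP2 rose in LIM1215-R2. ERAP1 (chr5:96760810-96808100, minus strand) was at 62.8, 61.2 and 61.9 CPM in the parental libraries, 46.7, 45.7 and 45.9 CPM in those of LIM1215-R1 and 47.4, 45.3 and 45.7 CPM in those of LIM1215-R2. The parental libraries were all above the resistant ones, and the resistant lines overlapped. ERAP1 fell by 0.43 on the log2 scale in LIM1215-R1 (SE 0.0585, adjusted p = 1.16e-06) and by 0.42 in LIM1215-R2 (SE 0.0585, adjusted p = 1.32e-06). The difference between the resistant lines was 0.00 (SE 0.0600).

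ERAP2 (chr5:96875986-96919703, plus strand), which lies beside ERAP1 and trims a different range of peptides, was much less abundant. It was at 2.42, 2.46 and 3.62 CPM in the parental libraries, 4.05, 4.02 and 3.57 CPM in those of LIM1215-R1 and 4.64, 4.15 and 4.77 CPM in those of LIM1215-R2. The highest parental library reached into the range of LIM1215-R1 but not into that of LIM1215-R2. ERAP2 rose by a log2 change of 0.65 in LIM1215-R2 (SE 0.181, adjusted p = 0.00610), a call that was lost in DESeq2 (adjusted p = 0.0184) and on leaving out parental replicate 1 or 2 or any library of LIM1215-R2 (adjusted p between 0.0105 and 0.0429). In LIM1215-R1 its log2 change was 0.43 (SE 0.186, adjusted p = 0.0720), and LIM1215-R2 differed from LIM1215-R1 by 0.22 (SE 0.174, adjusted p = 0.485).

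Of the chaperones of the loading complex, CALR was lower in both resistant lines and PDIA3 was not called. CALR (chr19:12938578-12944489, plus strand), which holds the class I heavy chain until a peptide is bound, was at 1401, 1398 and 1376 CPM in the parental libraries, 1198, 1191 and 1175 CPM in those of LIM1215-R1 and 1189, 1205 and 1235 CPM in those of LIM1215-R2. The libraries of a line lay close together, and the parental ones were all above the resistant ones. CALR fell by 0.23 on the log2 scale in LIM1215-R1 (SE 0.0333, adjusted p = 3.23e-06) and by 0.20 in LIM1215-R2 (SE 0.0332, adjusted p = 1.93e-05), so that parental cells had 1.17 and 1.15 times the level of the resistant lines. The resistant lines differed from each other by 0.03 (adjusted p = 0.702).

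PDIA3 (chr15:43746394-43773279, plus strand), the thiol oxidoreductase bridged to tapasin, was at 570, 521 and 544 CPM in the parental libraries, 541, 488 and 498 CPM in those of LIM1215-R1 and 514, 499 and 499.8 CPM in those of LIM1215-R2. The parental range overlapped that of LIM1215-R1 and lay above that of LIM1215-R2. Its log2 change was -0.10 in LIM1215-R1 (SE 0.0438, adjusted p = 0.0780) and -0.11 in LIM1215-R2 (SE 0.0438, adjusted p = 0.04996). A sequence on chromosome 1 matched the PDIA3 transcript at 97.6% identity, and whether reads were shared with it was not tested.

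HLA-DQB1 (chr6:32659467-32668383, minus strand) separated LIM1215-R1 from the other lines. It had 7, 0 and 2 counts in the parental libraries, 68, 51 and 64 counts in LIM1215-R1 and 3, 4 and 1 counts in LIM1215-R2. Every library of LIM1215-R1 was far above all other libraries, and the parental line and LIM1215-R2 overlapped. In CPM, the mean was 3.79 ± 0.519 in LIM1215-R1, 0.164 ± 0.0921 in LIM1215-R2 and 0.173 ± 0.215 in the parental line.

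The log2 change of HLA-DQB1 in LIM1215-R1 was 4.34 (SE 0.412, adjusted p = 1.89e-09), and the counts gave a ratio of 21.0 to parental with an exact 95% interval of 10.8 to 46.7. The size of this change rested on parental replicate 1, which held 7 of the 9 parental counts. Without it the log2 change was 5.80 (adjusted p = 1.38e-09), and with any other library left out it was at least 3.88. LIM1215-R2 was lower than LIM1215-R1 by a log2 difference of -4.45 (SE 0.422, adjusted p = 1.55e-08). Between LIM1215-R2 and parental the ratio was 0.918 (exact 95% interval 0.308 to 2.68). With 9 counts in the parental line and 8 in LIM1215-R2, a difference within this interval was not detectable at this depth. The level in LIM1215-R1 was still low, at 2.36 CPM per kilobase of transcript.

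CD74 (chr5:150401637-150412969, minus strand), the invariant chain that accompanies class II molecules, had 1 count in parental replicate 3 and 0 in every other library. The count in all libraries allowed a level of at most 0.0381 CPM (upper limit of the exact 95% interval), and 0 counts in LIM1215-R1 allowed at most 0.0765 CPM. CD74 had no alternate copy among the reference sequences. The rise of HLA-DQB1 in LIM1215-R1 stood beside CIITA and CD74 at or near 0 in the same libraries.

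The CPM of the 14 leukocyte markers summed to between 7.49 and 10.5 in the parental libraries, 12.2 and 14.8 in LIM1215-R1 and 8.88 and 10.8 in LIM1215-R2, which was higher in LIM1215-R1 as HLA-DQB1 was. Nearly all of this was CD68, a lysosomal protein, with 115 to 152 counts per parental library, 190 to 227 in LIM1215-R1 and 131 to 176 in LIM1215-R2. PTPRC, the defining leukocyte marker, and the B cell marker MS4A1 were at 0 counts in every library. CD14 had 2, 0 and 2 counts in the parental libraries, 3, 2 and 3 in LIM1215-R1 and 0 in every library of LIM1215-R2. SPI1 had 3 counts, all in LIM1215-R1 replicate 1, and ITGAX had 2 in LIM1215-R1 and 1 in LIM1215-R2. CSF1R and CD79A went the other way, with 10 and 11 counts in the parental line and 5 and 2 in each resistant line. Whether such low counts came from other cells was not tested.

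**Figure D3:**
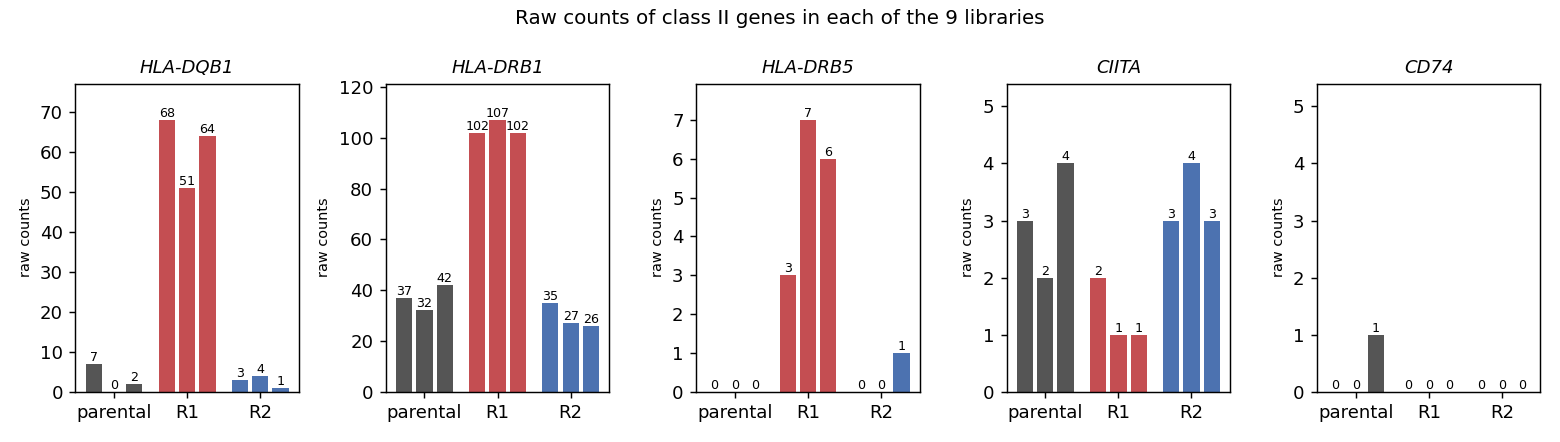
Raw counts (y axis, from 0, a separate scale for each gene) of HLA-DQB1, HLA-DRB1, HLA-DRB5, CIITA and CD74 in each of the 9 libraries (bars, with the count printed above). HLA-DQB1 had 51 to 68 counts per library in LIM1215-R1 and at most 7 elsewhere, whereas CIITA had at most 4 in any library and CD74 had 1 count in all.

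HLA-DRB1, another class II beta chain, was also highest in LIM1215-R1. It had 37, 32 and 42 counts in the parental libraries, 102, 107 and 102 in LIM1215-R1 and 35, 27 and 26 in LIM1215-R2. The libraries of LIM1215-R1 were above all others. Its log2 change was 1.53 in LIM1215-R1 (SE 0.168, adjusted p = 2.8e-08) and -0.29 in LIM1215-R2 (adjusted p = 0.323), and LIM1215-R2 was lower than LIM1215-R1 by a log2 difference of -1.82 (SE 0.175, adjusted p = 2.06e-08).

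HLA-DRB5, a near relative of HLA-DRB1, had 0 counts in the parental line, 3, 7 and 6 in LIM1215-R1 and 1 in LIM1215-R2. Its level in LIM1215-R1 was at least 5.51-fold higher than in the parental line, against 3 counts over the parental libraries together. Its call (adjusted p = 0.00249) was lost without parental replicate 1 (0.0101) or 3 (0.0120). DESeq2 gave HLA-DRB5 no adjusted p and so did not call it, and requiring at least 10 counts in every library left it out. The transcripts of HLA-DRB1 and HLA-DRB5 also matched other places on chromosome 6, at 93.0% and 94.4% identity, so that the split of reads between them is uncertain. Each also matched 7 alternate sequences of the assembly, HLA-DRB1 at 91.9% to 95.3% and HLA-DRB5 at 89.9% to 92.7% identity. The effect of these on the counts was not tested.

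The class II alpha, beta and accessory chain genes HLA-DRA, HLA-DPA1, HLA-DPB1, HLA-DQA1, HLA-DQA2, HLA-DQB2, HLA-DMA, HLA-DMB, HLA-DOA and HLA-DOB were listed at 0 counts in every library, as was MARCHF1. This cannot be read as absence of these transcripts. The hg38 assembly carries alternate versions of the MHC region, and 18 of the genes on chromosome 6 in the fixed pathway lists had an alternate copy with at least 99% identity. Of these 18, 9 had 0 counts in all libraries together, and 11 had under 10 counts, among them HLA-E with 1 count. All 9 of the former were class II genes, whereas 0 of the 9 class I loading genes with such a copy were at 0 counts. Of the 46 pathway genes without such a copy, 2 had 0 counts, the class II list genes HLA-DQA1 and MARCHF1. Whether the authors' reference held the alternate sequences is not given in the sources used here, and the part of read sharing in these counts was not tested.

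Among the members, B2M was the only gene with a near-identical alternate copy, 1 at 99.9% identity, whose effect on its counts was not tested. HLA-DQB1 matched 7 alternate versions at 88.1% to 94.2% identity, none of them near-identical, and their effect on its counts was not tested either. HLA-DQA1, at 0 counts in every library, also matched 7 alternate versions, at 90% to 92.9% identity. NLRC5, CIITA, CD74, ERAP1, ERAP2, CALR and RFX5 had no such match.

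Levels of different genes were compared in CPM per kilobase of the canonical transcript. In the parental line the order was CALR at 732, PDIA3 at 148, B2M at 101, RFX5 at 18.6, ERAP1 at 12.8, NLRC5 at 9.45 and ERAP2 at 0.552, with no overlap between neighbours. HLA-DQB1 at 0.108, CIITA at 0.0110 and CD74 at 0.0106 came last, and their ranges over the libraries overlapped.

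In the resistant lines the order was different. B2M and PDIA3 overlapped, at 147 and 138 in LIM1215-R1 and 141 and 137 in LIM1215-R2. Whether reads shared with the near matches of B2M and PDIA3 given above affected their place in any line was not tested. NLRC5 moved above ERAP1, at 18.4 against 9.52 in LIM1215-R1 and 16.85 against 9.54 in LIM1215-R2, and above RFX5 in LIM1215-R2, where RFX5 was at 13.5. In LIM1215-R1 NLRC5 and RFX5, at 17.0, overlapped. HLA-DQB1 at 2.36 stood above ERAP2 at 0.756 in LIM1215-R1 alone.

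**Figure D4:**
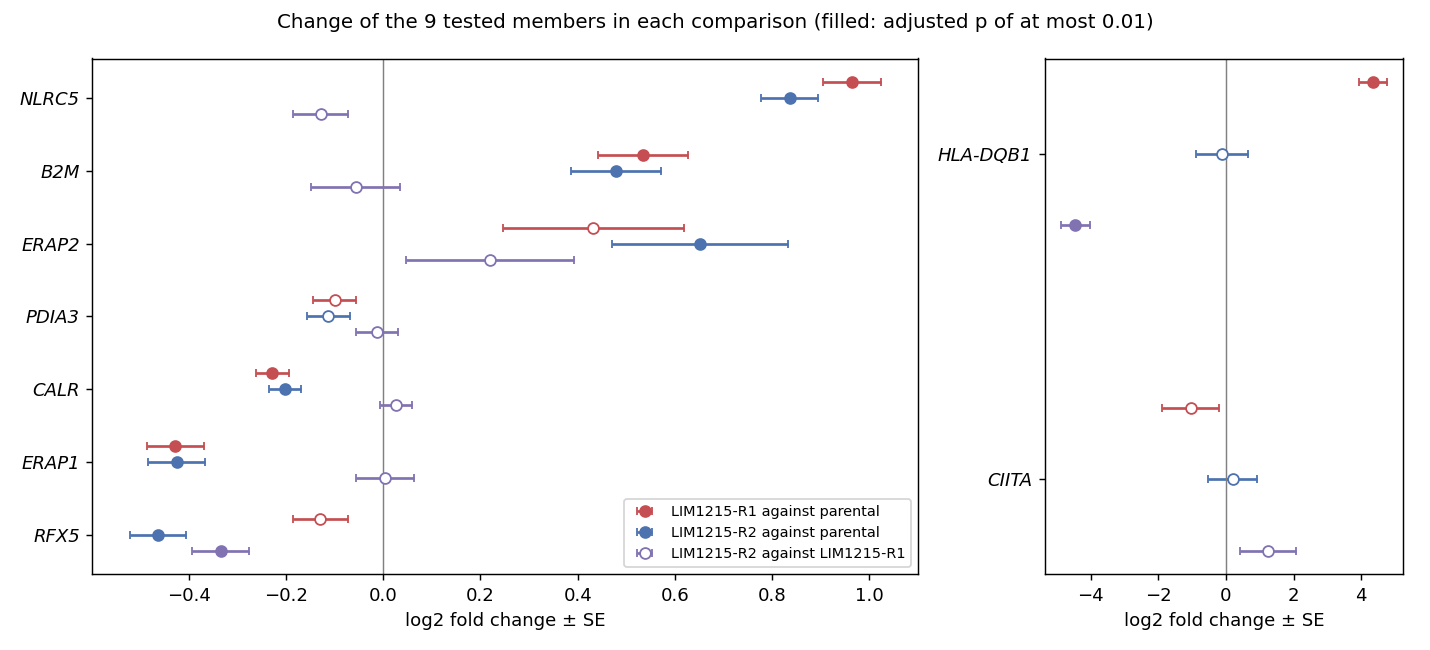
Log2 fold change with its SE (x axis, linear) of the 9 tested members in the 3 comparisons (colours), with HLA-DQB1 and CIITA on a wider scale at the right. Filled points have an adjusted p of at most 0.01. NLRC5 and B2M lie to the right of 0 in both comparisons with the parental line, CALR and ERAP1 to the left, and HLA-DQB1 reaches 4.34 in LIM1215-R1 and -4.45 between the resistant lines.

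Over the 9 libraries, the genes whose log2 CPM followed that of HLA-DQB1 most closely, among 12563 genes with a mean of at least 1 CPM, were LOC105370363 (Pearson's r = 0.97), ACTL8 (r = 0.97) and SERPINB5 (r = 0.97). These values are a description, since the libraries fall into the 3 lines and share them. ACTL8 was at 6.94 ± 0.962 CPM in the parental line, 19.5 ± 0.764 CPM in LIM1215-R1 and, in LIM1215-R2, 7.78 ± 0.915 CPM. SERPINB5, a serpin of epithelial cells known as maspin, was at 335 ± 10.0, 430 ± 6.85 and 348 ± 14.6 CPM.

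The other genes of the pathway were taken from 3 lists with 66 genes, of which 53 were tested. Of 22 tested genes of class I loading, 6 rose and 3 fell in LIM1215-R1 and 6 rose and 2 fell in LIM1215-R2, with medians of 0.14 and 0.13 on the log2 scale. The higher genes were 27.3% of the list in both lines, above the 14.0% and 12.3% of all genes tested, whereas the lower ones, at 13.6% and 9.09%, were near the 13.4% and 11.6% of all genes. Besides HLA-B and HLA-C, TAP2, a subunit of the peptide transporter, rose by a log2 change of 1.23 in LIM1215-R1 (SE 0.308, adjusted p = 0.00220) at a mean of 1.76 CPM, a call lost without parental replicate 1 (0.0132) or 3 (0.0172) or LIM1215-R1 replicate 3 (0.0109). TAP2 had only 11 to 30 counts per library. TAP2 and HLA-C were among the 9 class I loading genes with a near-identical alternate copy. TAP2 had 7 such copies at 99.6% to 99.96% identity, and HLA-C had 1 at 99.7%. HLA-B had no near-identical copy but matched 3 alternate sequences at 96.8% to 98.6% identity. The effect of these copies and matches on the counts of such genes, and on the shares of the list, was not tested. SEC61A1, the channel of protein import into the endoplasmic reticulum, rose by 0.53 in LIM1215-R2 (SE 0.0419). Between the resistant lines, 3 genes of this list (13.6%) were higher and 1, HLA-B (4.55%), was lower in LIM1215-R2. Of all genes, 3.39% were called higher and 3.77% lower, so the lower share of the list was near that of all genes. The list genes higher in LIM1215-R2 were the aminopeptidase LNPEP (0.38), the disulphide isomerase PDIA4 (0.22) and the chaperone CANX (0.16). The call of PDIA4 was lost without LIM1215-R2 replicate 1 (adjusted p = 0.0106), and that of CANX with DESeq2 (0.0172) and in several other settings.

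Of 16 tested genes of class II presentation, 7 rose and 3 fell in LIM1215-R1, and 5 rose and 2 fell in LIM1215-R2. The medians were 0.16 and -0.04. The higher share was 43.8% and 31.2% of the list, beside 14.0% and 12.3% of all genes. The lower share was 18.8% and 12.5%, beside 13.4% and 11.6% of all genes, and in LIM1215-R2 it was near that of all genes. CTSL, a lysosomal cysteine protease, rose by log2 changes of 1.93 and 1.40, IFI30, the lysosomal thiol reductase GILT, by 1.68 and 1.63, and CTSH, a lysosomal aminopeptidase, by 0.93 and 0.67. These are enzymes of lysosomes in general as well as of class II processing. CTSL and CTSH were also lower in LIM1215-R2 than in LIM1215-R1, by log2 differences of -0.53 and -0.26, which with HLA-DRB1 made 3 lower genes. These were 18.8% of the list, beside 3.77% of all genes. The call of CTSL missed the threshold without LIM1215-R2 replicate 2 (adjusted p = 0.0129), and that of CTSH without the same library (0.0194) or LIM1215-R1 replicate 3 (0.0109).

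Of 15 tested genes of interferon gamma signalling, 4 rose and 2 fell in each resistant line, with medians of -0.02 and 0.00. The higher share of 26.7% stood above that of all genes (14.0% and 12.3%) and the lower share of 13.3% near it (13.4% and 11.6%). IRF9, the DNA-binding part of the factor that interferons activate, rose by 1.56 in LIM1215-R1 (SE 0.165) and 1.78 in LIM1215-R2 (SE 0.162). IFNGR1, the ligand-binding chain of the receptor, rose by 0.97 and 0.56. IRF8 fell by 2.11 in LIM1215-R1 (SE 0.0820) and by 1.37 in LIM1215-R2 (SE 0.0761), from a mean of 43.8 ± 1.06 CPM to 10.1 ± 0.392 and 16.9 ± 0.729 CPM. Between the resistant lines, IRF8 was higher in LIM1215-R2 (0.74) and IFNGR1 was lower (-0.41). Each was 6.67% of the list, beside 3.39% of all genes called higher and 3.77% called lower.

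**Figure D5:**
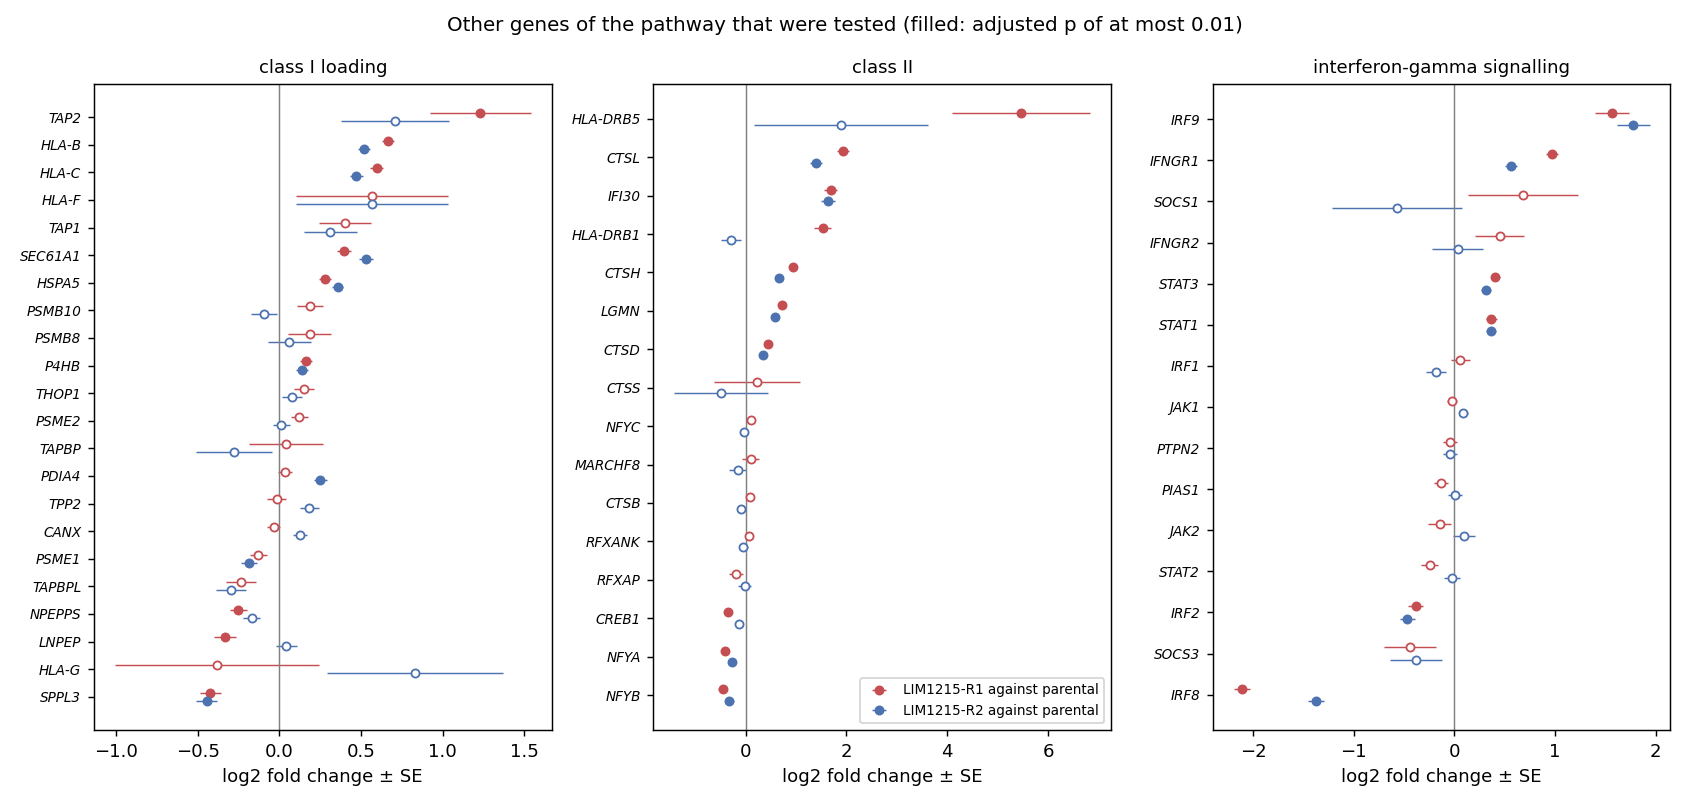
Log2 fold change with its SE (x axis, linear, a separate scale for each list) of the tested genes of the 3 pathway lists in LIM1215-R1 (red) and LIM1215-R2 (blue) against parental, ordered by the value in LIM1215-R1. Filled points have an adjusted p of at most 0.01. HLA-B, HLA-C and SEC61A1 lie to the right of 0 in both lines, HLA-DRB1 is filled in LIM1215-R1 only, and IRF9 and IRF8 are at opposite ends of the interferon list. The fitted value of HLA-DRB5, which had 0 parental counts, depends on the prior count.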

How the data were processed

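Poly(A) RNA of 3 libraries per LIM1215 line was made into stranded, paired-end libraries. STAR was used by the authors for alignment to hg38, htseq-count 0.9.1 counted the reads of the sense strand per gene, and raw counts were deposited without normalization. The gene annotation is not given in the sources used here. Groups were taken from the sample titles. Genes were kept if their counts summed to 10 or more (19102 of 58920), scaled by TMM and fitted with edgeR 4.0.16 in R 4.3.3, using the quasi-likelihood test with the 3 lines as groups, and p-values were adjusted by Benjamini-Hochberg over all genes tested. DESeq2 1.42.0 was an alternative. The script was tested on simulated data. CPM values use the TMM factors, the SE was derived from the test statistic, and counting intervals are exact. Gene positions and canonical transcripts are those of GENCODE 44, transcripts were aligned to hg38 with minimap2 2.31 (at least 85% identity over at least 50% of the length), and promoters are from RefSeq.

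The members and lists were chosen with earlier results of these data known. All 10 members were named, as were up to 3 genes per pathway list and comparison with the largest change among those called, list genes with 0 counts, and the 3 genes most like each DEG among the members. Of the class I loading list, 1 gene is not reported here and was left out of the list's counts and of this rule. The alternatives were other scalings, filters and tests, the 6 libraries compared, a replicate block, a lower DEG limit and each library left out in turn.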

Additional observations from a re-analysis of the deposited data

Results flagged for a closer look

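The resistant lines differed from each other, by edgeR's test of LIM1215-R2 against LIM1215-R1 itself, in 2 of the 9 tested antigen presentation genes. Of all genes tested, 7.16% were called in this comparison. HLA-DQB1 was lower in LIM1215-R2 by a log2 difference of -4.45 (SE 0.422, adjusted p = 1.55e-08) and RFX5 by -0.33 (SE 0.0578, adjusted p = 0.000178).

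Among the other genes of the pathway, HLA-DRB1 (-1.82), CTSL (-0.53), IFNGR1 (-0.41), CTSH (-0.26) and HLA-B (-0.15) were lower in LIM1215-R2 than in LIM1215-R1 on the log2 scale. IRF8 (0.74), LNPEP (0.38), PDIA4 (0.22) and CANX (0.16) were higher. The adjusted p of these 9 genes lay between 2.06e-08 for HLA-DRB1 and 0.00807 for CANX. Each line is 1 selected population, so the line and the culture cannot be told apart.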

How the results depend on the processing

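Of the counts of called genes, 143 kept within 1.5 times their value and 4 did not. Requiring at least 10 counts in every library left HLA-DQB1 out of the test, so that 0 members were DEGs in LIM1215-R1 against parental and 0 in LIM1215-R2 against LIM1215-R1, where 1 member was then called. Of the tested pathway genes, 9 (17.0%) were called between the resistant lines, beside 7.16% of all genes. With a library left out, between 5 and 10 were called, the lowest without LIM1215-R2 replicate 2. Of the single-gene values of the members, 405 kept their direction and their side of the threshold, 7 lost a call (B2M and ERAP2 in LIM1215-R2, given with their values above) and 13 turned their sign, all of them differences that were not called. Of those of the named pathway genes, 454 kept both, 24 lost a call and none turned its sign. CANX lost its call between the resistant lines with DESeq2's size factors (adjusted p = 0.0114), with at least 10 counts in every library (0.0204) and without parental replicate 3, LIM1215-R1 replicate 2 or 3 or LIM1215-R2 replicate 1 or 2 (0.0110 to 0.0666). HLA-DQB1 in LIM1215-R2 against parental ranged from -0.58 to 1.34 with a library left out, the latter without parental replicate 1, which held 7 of the 9 parental counts, and was 0.23 without LIM1215-R2 replicate 3. Between the resistant lines, B2M ranged from -0.15 to 0.095 with a library left out, ERAP1 from -0.017 to 0.016 and PDIA3 from -0.043 to 0.033. ERAP1 was -0.0021 with DESeq2's size factors and with DESeq2's test, -0.0012 without a filter, -0.0065 with at least 10 counts in every library and -0.0015 with the 6 libraries compared. PDIA3 was 0.0052 with total counts. Same-numbered libraries correlated at between -0.16 and 0.45 and 5 of 9 correlated best with their own number, which does not settle whether replicate numbers pair the libraries. With a replicate block 5, 6 and 2 members and 26, 25 and 13 pathway genes were called in LIM1215-R1 and LIM1215-R2 against parental and between the resistant lines. Depth limits what can be said of CIITA, CD74 and HLA-DQB1 outside LIM1215-R1.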
